A study of Mus musculus with 4 samples.

Results

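The genes *Tbx4*, *Tbx5*, *Tbx3*, *Foxf1*, *Hoxa5*, *Hoxb5*, *Meox2*, *Twist1*, *Twist2* and *Prrx1* encode transcription factors of the lung mesenchyme. They were chosen by symbol and are 10 of the 45706 genes in the deposited count table. All 10 averaged 5 counts or more per lung and so were among the 18763 genes tested. RNA came from E17 left lung lobes of untreated C57BL/6 mouse embryos, 2 of them wild type (*Myh10+/+*) and 2 homozygous for the L458R allele of *Myh10* (*Myh10-/-*). This missense allele was found in a chemical mutagenesis screen and lies in the motor domain of a non-muscle myosin II heavy chain. It is carried in every cell of the embryo, and each library is made from a whole lobe, in which mesenchyme, epithelium, endothelium and blood are mixed. In such RNA, fewer cells of a type and less RNA per cell cannot be told apart. The lungs came from separate embryos, and with 2 per genotype the p-values measure the spread between these 4 lungs only.

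The mesenchyme of the developing lung surrounds the epithelial tubes and sends them signals that drive branching and differentiation, and it gives rise to fibroblasts, airway smooth muscle and pericytes. T-box factors, the forkhead factor FOXF1 and HOX5 proteins act in this layer together with the WNT, FGF and Hedgehog signals exchanged with the epithelium. MEOX2 and PRRX1 are homeodomain proteins of mesodermal cells, and TWIST1 and TWIST2 are basic helix-loop-helix proteins that bind E-boxes and are best known for keeping cells mesenchymal.

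Several of these factors are close paralogs. The 90 bases of coding sequence within a single exon at which 3 of the pairs are most alike are shown here, from the GRCm38 annotation. They make visible what separates the reads of a pair. Capitals mark the bases that differ within a pair.
Tbx4 (chr11:85899796-85899885, plus strand): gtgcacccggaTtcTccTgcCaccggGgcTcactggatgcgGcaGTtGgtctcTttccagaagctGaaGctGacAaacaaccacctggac
Tbx5 (chr5:119841799-119841888, plus strand): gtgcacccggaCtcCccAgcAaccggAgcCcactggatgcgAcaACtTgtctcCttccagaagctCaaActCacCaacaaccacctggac
Hoxa5 (chr6:52202732-52202821, minus strand): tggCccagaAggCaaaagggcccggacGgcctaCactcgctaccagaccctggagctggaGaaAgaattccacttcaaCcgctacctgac
Hoxb5 (chr11:96304897-96304986, plus strand): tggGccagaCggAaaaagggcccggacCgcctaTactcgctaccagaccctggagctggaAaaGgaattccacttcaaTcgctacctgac
Twist1 (chr12:33958324-33958413, plus strand): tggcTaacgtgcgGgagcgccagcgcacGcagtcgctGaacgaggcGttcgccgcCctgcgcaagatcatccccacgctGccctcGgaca
Twist2 (chr1:91801835-91801924, plus strand): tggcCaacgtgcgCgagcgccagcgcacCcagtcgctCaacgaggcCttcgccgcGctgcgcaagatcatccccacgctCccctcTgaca
*Tbx4* and *Tbx5* shared 75 of these 90 bases (83.3%), and no run longer than 23 bases was shared anywhere in their coding sequences. *Hoxa5* and *Hoxb5* shared 82 of 90 (91.1%), with a longest run of 26 bases, and *Twist1* and *Twist2* also shared 82 of 90, with a longest run of 23 bases. Reads were up to 75 bases long, and no window of 75 bases along a transcript of any of the 10 factors occurred on the same strand in a transcript of another gene. Windows shared with an antisense gene were few for *Tbx3* (0.856%, with *Tbx3os1*), *Foxf1* (1.03%, with the microRNA gene *Gm27530*) and *Hoxb5* (0.959%, with *Hoxb5os*). In *Twist2* they made up 56.9% of the windows, all shared with *Gm29100*, whose exons cover 1477 bp (46.5%) of the *Twist2* exons. The strand setting of the counting is not given in the sources used here, so the *Twist2* count is uncertain in this respect.

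The total count on genes was between 19116971 and 32055306 per lung, and the lungs of a genotype differed by more than counting error (chi-square per degree of freedom 7.5 and 13). *Myh10* itself, in which a single base is replaced, was counted at 505 and 504 CPM in *Myh10+/+* lungs and at 539 and 513 CPM in *Myh10-/-* lungs (log2 fold change 0.06, edgeR adjusted p = 0.662). The mutant values were both above the wild-type values, but such a replacement need not alter the count, so it does not check the labels. *Xist* and Y-linked *Ddx3y* set *Myh10+/+* lung 1 and *Myh10-/-* lung 2 (3916 and 4457 CPM of *Xist*) apart from the other lungs (1.84 and 4.10 CPM), so each genotype held both patterns. The part of X-linked and Y-linked genes in the chi-square values above was not tested, so those values do not give the spread of the other genes. Values below are CPM, counts scaled by TMM to a common library size, and fold changes are *Myh10-/-* over *Myh10+/+*.

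At E17 the fitted level of each of the 10 factors in *Myh10-/-* lungs was between 11.7% below (*Foxf1*) and 20.7% above (*Prrx1*) its level in *Myh10+/+* lungs. None passed the threshold of 0.05 on the adjusted p-value of the edgeR quasi-likelihood test with Benjamini-Hochberg adjustment, at which 1.64% of all tested genes were called (1.34% lower and 0.298% higher). At an unadjusted p-value under 0.05 there were 4 of 10, where 16.5% of all tested genes lay: *Foxf1* was lower (9.02% of all genes were) and *Tbx5*, *Hoxb5* and *Prrx1* were higher (7.52% of all genes were). The DESeq2 Wald test called none of the 10 either, against 1.83% of all genes, and put 3 of them under an unadjusted p-value of 0.05. The CPM values of the genotypes did not overlap for 6 of the 10, *Tbx5*, *Tbx3*, *Foxf1*, *Hoxb5*, *Meox2* and *Prrx1*, a share set beside 48.3% of all tested genes (24.3% lower and 23.9% higher). With library totals in place of TMM *Tbx3* left this group and *Twist2* joined it, and in counts thinned to the smallest total 5 factors were in it. The median log2 fold change of the 10 was 0.05, beside 0.00 for all tested genes, and the 10 ranged from -0.18 to 0.27, inside the interval from -0.44 to 0.53 that holds all tested genes between the 5th and the 95th percentile. Summed over the 10 factors, the lungs had 835 and 816 CPM in *Myh10+/+* and 840 and 852 CPM in *Myh10-/-*, between 0.0816% and 0.0852% of all counts.

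**Figure D1:**
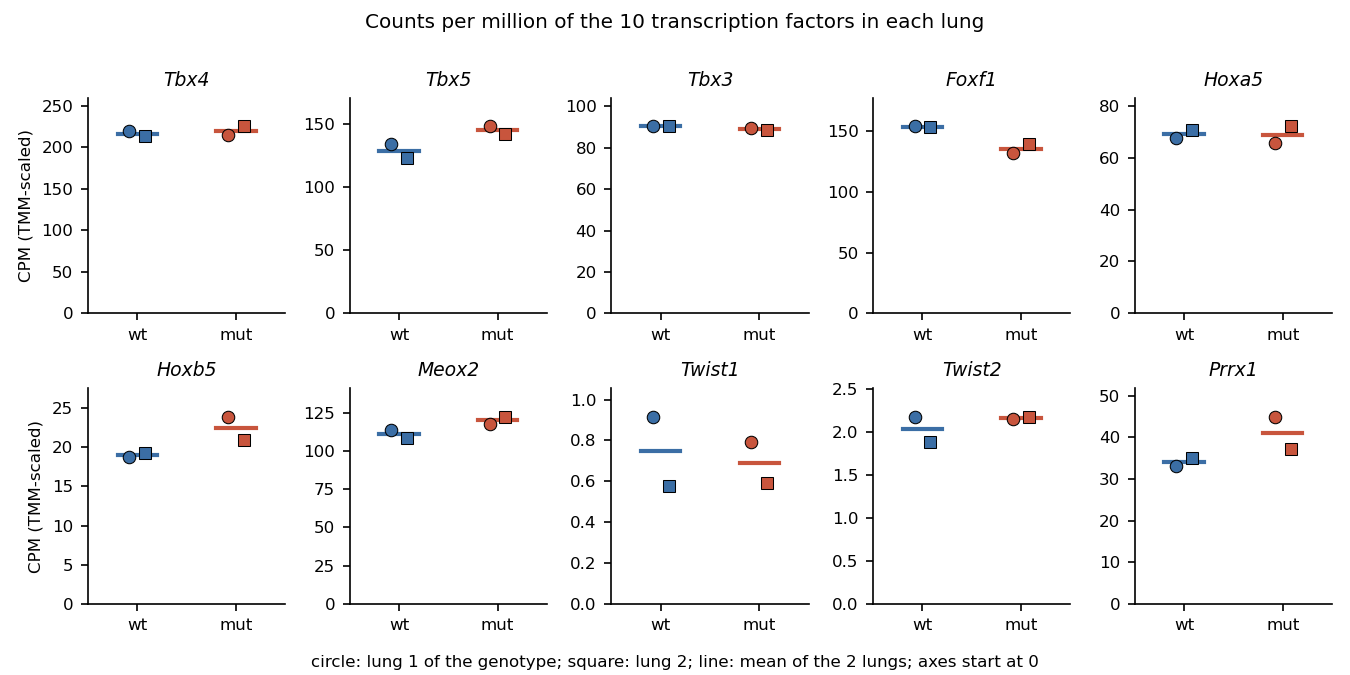
CPM (vertical axis, starting at 0) of each of the 10 factors in the 2 *Myh10+/+* lungs (wt) and the 2 *Myh10-/-* lungs (mut), where circles are lung 1, squares are lung 2 and lines are means. The genotypes lie apart for 6 of the 10 factors, beside 48.3% of all tested genes. Among the 6, *Foxf1* is at 154 and 153 CPM in wild-type lungs and at 132 and 140 CPM in mutant lungs. *Tbx3* is apart by 0.913% at the nearest values.

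**Figure D2:**
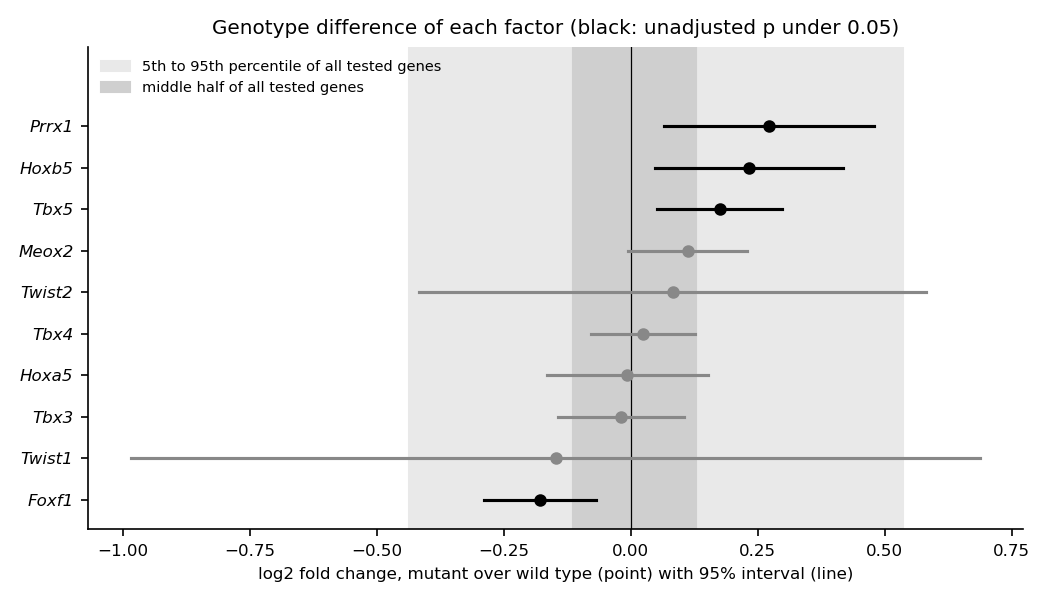
Log2 fold change (horizontal axis) of each factor with its 95% confidence interval as a line, over grey bands for the middle and the 5th to 95th percentile range of all tested genes. The 4 intervals drawn in black, for *Foxf1*, *Tbx5*, *Hoxb5* and *Prrx1*, have an unadjusted edgeR p-value under 0.05, as 16.5% of all tested genes do. None of the 10 passed after adjustment.

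*Tbx4* (ENSMUSG00000000094, chr11:85886422-85916097, plus strand) is expressed in lung and tracheal mesenchyme and is a marker of its fibroblast and smooth muscle lineages. It was counted at 220 and 213 CPM in *Myh10+/+* lungs and at 215 and 225 CPM in *Myh10-/-* lungs. The highest value was in a mutant lung and the lowest in a wild-type lung, and the groups overlap. Its log2 fold change was 0.02 (SE 0.05, edgeR adjusted p = 0.855), and the 95% interval of the difference ran from -5.36% to 9.14%. *Tbx5* (ENSMUSG00000018263, chr5:119832668-119885219, plus strand) acts with *Tbx4* in lung bud outgrowth and in branching. Its counts came to 134 and 123 CPM in *Myh10+/+* lungs and at 149 and 142 CPM in *Myh10-/-* lungs. Both mutant lungs were above both wild-type lungs, with a gap of 5.82% between the nearest values. The log2 fold change was 0.17 (SE 0.06), a level 12.9% higher with an interval from 3.66% to 22.9%, and the edgeR test gave an adjusted p of 0.147. *Tbx3* (ENSMUSG00000018604, chr5:119670669-119684724, plus strand) lies beside *Tbx5* on chromosome 5 and encodes a repressor that, with TBX2, keeps lung mesenchyme proliferating. It was counted at 90.5 and 90.3 CPM in *Myh10+/+* lungs and at 89.5 and 88.8 CPM in *Myh10-/-* lungs. The mutant values were below the wild-type values by no more than 0.913% at the nearest point, and the log2 fold change was -0.02 (SE 0.06, edgeR adjusted p = 0.904; 0.00 with library totals), with an interval of the difference from -9.5% to 7.48%.

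Of the other T-box genes, 14 of the 15 listed were in the table and 7 were tested, and none was called by the edgeR test, with 1 lower and 1 higher at an unadjusted p-value under 0.05. With no filter 1 was called lower and 1 higher, and 1 was called lower without *Myh10+/+* lung 1, without *Myh10-/-* lung 1 or with the crossed block. *Tbx20*, a T-box gene best known from the heart, was counted at 9.60 and 13.9 CPM in *Myh10+/+* lungs and at 9.24 and 6.49 CPM in *Myh10-/-* lungs, with a log2 fold change of -0.57 (edgeR adjusted p = 0.145). *Tbr1*, a gene of cortical neurons, was at the limit of detection, with between 0 and 0.497 CPM, and had an edgeR adjusted p of 0.110. The median log2 fold change of the list was 0.06. Of the 9 cardiac markers 8 were tested and 5 fell (median log2 fold change -0.51). Their sum was 291 and 351 CPM in *Myh10+/+* lungs and 237 and 218 CPM in *Myh10-/-* lungs, and the part of cardiac cells in the *Tbx20* values was not tested.

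*Foxf1* (ENSMUSG00000042812, chr8:121084386-121088144, plus strand) encodes a forkhead factor that is a target of Hedgehog signalling and is present in lung mesenchyme and in capillary endothelium. Its level was 154 and 153 CPM in *Myh10+/+* lungs and at 132 and 140 CPM in *Myh10-/-* lungs. The wild-type lungs lay within about 1 CPM of each other, and the nearer mutant lung was 8.80% below the nearer wild-type lung. The log2 fold change was -0.18 (SE 0.05), a difference of -11.7% with an interval from -18.2% to -4.60%, and the edgeR test gave an adjusted p of 0.107. With an offset for GC content and exon length the log2 fold change shrank to -0.10 (edgeR adjusted p = 0.243). With the replicate number as a block it was -0.18 (edgeR adjusted p = 0.0486), a fit in which 3.78% of all genes were called. That block pairs lungs of opposite *Xist* pattern. With lungs of like *Xist* pattern paired instead, the log2 fold change was -0.18 (edgeR adjusted p = 0.183). *Fendrr*, the noncoding RNA transcribed in the opposite direction from a start 1276 bp away, was counted at 281 and 296 CPM in *Myh10+/+* lungs and at 309 and 280 CPM in *Myh10-/-* lungs. Its values overlap between the genotypes (log2 fold change 0.03, edgeR adjusted p = 0.823). Endothelial markers had a summed level of 2371 and 2364 CPM in *Myh10+/+* lungs and 2187 and 2165 CPM in *Myh10-/-* lungs. Of these 12 markers 11 had a log2 fold change below 0, and the median of the list was -0.13. At an unadjusted edgeR p-value under 0.05, 7 of them were lower, where 9.02% of all tested genes were. Only *Cldn5*, a tight junction gene, passed after adjustment (116 and 123 CPM against 87.4 and 101.5 CPM, log2 fold change -0.34, edgeR adjusted p = 0.0379). The part of endothelial cells in the *Foxf1* values was not tested.

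Of the other forkhead genes, listed as genes of mesenchyme or vessels, 13 of 15 were tested. Which cells of the lobe their counts came from was not tested. None was called by edgeR (3 were higher at an unadjusted p-value under 0.05, median log2 fold change 0.03), and DESeq2 called 1 as higher. Other edgeR settings also called 1 as higher: library totals, robust = TRUE, no filter on low counts, the replicate block, the offset for GC content and length, both together, the crossed block, leaving out chromosomes X and Y, and leaving out *Myh10-/-* lung 2. *Foxm1*, a driver of the cell cycle, was counted at 84.4 and 81.6 CPM in *Myh10+/+* lungs and at 107 and 94.5 CPM in *Myh10-/-* lungs (log2 fold change 0.28, edgeR adjusted p = 0.0654). *Foxc2*, a gene of lymphatic and mesenchymal cells, was higher in both mutant lungs at a low level, 0.742 and 0.840 CPM against 1.47 and 1.34 CPM (log2 fold change 0.83, edgeR adjusted p = 0.199).

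*Hoxa5* (ENSMUSG00000038253, chr6:52201754-52204587, minus strand) is a Hox gene closely tied to lung patterning and to alveolar development. The lungs had 67.7 and 70.7 CPM in *Myh10+/+* lungs and at 65.6 and 72.2 CPM in *Myh10-/-* lungs. The mutant lungs were the lowest and the highest of the 4. Its log2 fold change was -0.01 (SE 0.07, edgeR adjusted p = 0.976; 0.01 with library totals), with an interval from -10.8% to 11.1%. *Hoxb5* (ENSMUSG00000038700, chr11:96303336-96306121, plus strand) is its paralog in the Hoxb cluster and is involved in airway branching. Its level was 18.8 and 19.3 CPM in *Myh10+/+* lungs and at 23.9 and 20.9 CPM in *Myh10-/-* lungs. Both mutant lungs were above the wild-type lungs, by 8.34% at the nearest point, and lung 1 was the higher of the 2 mutants. The log2 fold change was 0.23 (SE 0.09), a level 17.5% higher with an interval from 3.38% to 33.6%, and the edgeR test gave an adjusted p of 0.193. Its antisense transcript *Hoxb5os* lay the other way, at 3.54 and 3.26 CPM in *Myh10+/+* lungs and 2.66 and 2.89 CPM in *Myh10-/-* lungs (log2 fold change -0.29, edgeR adjusted p = 0.493).

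Hox transcripts in these lungs came almost wholly from the 3' and middle parts of the clusters, and hardly from their 5' ends. Of the counts on the 39 Hox genes, paralog groups 1 to 8 (16 of 23 genes tested) held 99.5% and groups 9 to 13 (3 of 16 tested) held 0.547%. The Hoxa cluster held 59.5% of the Hox counts, the Hoxb cluster 39.5%, the Hoxd cluster 0.636% and the Hoxc cluster 0.36%. All 8 tested Hoxb genes, *Hoxb5* among them, had a log2 fold change above 0, where the median of all tested genes was 0.00. The log2 fold change was only 0.03 for *Hoxb7* and 0.06 for *Hoxb8*. For *Hoxb2*, *Hoxb4*, *Hoxb7*, *Hoxb8* and *Hoxb9* the CPM values of the genotypes overlapped. The 8 tested Hoxa genes were split into 4 above 0 and 4 below, with *Hoxa5* above 0 when scaled by library totals. Apart from *Hoxa5* and *Hoxb5*, 17 of the 37 listed Hox genes were tested and edgeR called none (1 lower and 2 higher at an unadjusted p-value under 0.05), with a median log2 fold change of 0.13. In other edgeR settings 1 was called higher, with no filter, the offset for GC content and length, the offset and the block, or without *Myh10+/+* lung 2, and 2 were without *Myh10-/-* lung 2. The lowest unadjusted p-value belonged to *Hoxb3*, at 11.8 and 14.4 CPM in *Myh10+/+* lungs and 18.1 and 16.4 CPM in *Myh10-/-* lungs (log2 fold change 0.40, edgeR adjusted p = 0.0852). *Hoxd9*, the next, was counted at between 0.155 and 0.524 CPM (log2 fold change -1.19, edgeR adjusted p = 0.266). Of the 9 cofactors of the MEIS, PBX and PKNOX families, which bind DNA together with HOX proteins, edgeR called none (1 lower and 1 higher at an unadjusted p-value under 0.05). *Meis1* (log2 fold change 0.14, edgeR adjusted p = 0.285) and *Pbx4* (log2 fold change -0.27, edgeR adjusted p = 0.289) had the lowest unadjusted p-values among them.

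*Meox2* (ENSMUSG00000036144, chr12:37108540-37179534, plus strand) encodes a homeodomain factor of mesodermal and vascular cells. It was counted at 114 and 109 CPM in *Myh10+/+* lungs and at 118 and 123 CPM in *Myh10-/-* lungs. The mutant lungs were above the wild-type lungs by 3.63% at the nearest point. The log2 fold change was 0.11 (SE 0.05), and its interval, from -0.425% to 17.2%, included no difference (edgeR adjusted p = 0.325). *Prrx1* (ENSMUSG00000026586, chr1:163245119-163313710, minus strand) encodes a homeodomain factor of fibroblasts and of limb and craniofacial mesenchyme. Its level was 33.0 and 35.1 CPM in *Myh10+/+* lungs and at 45.0 and 37.3 CPM in *Myh10-/-* lungs. Lung 1 of the mutants stood apart, and lung 2 was 6.04% above the nearer wild-type lung. The log2 fold change of 0.27 (SE 0.09) was the largest of the 10 factors, a level 20.7% higher with an interval from 4.58% to 39.3%, and the edgeR test gave an adjusted p of 0.176. Without *Myh10-/-* lung 1 it was 0.13, and without *Myh10-/-* lung 2 it was 0.41. *Dnm3os*, a noncoding RNA on the same chromosome that is expressed in mesenchyme, was counted at 83.0 and 86.4 CPM in *Myh10+/+* lungs and at 86.4 and 96.1 CPM in *Myh10-/-* lungs (edgeR adjusted p = 0.450).

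*Twist1* (ENSMUSG00000035799, chr12:33957671-33959829, plus strand) and *Twist2* (ENSMUSG00000007805, chr1:91801461-91848028, plus strand) were close to the lower limit of these libraries. *Twist1* had 21 and 11 counts in *Myh10+/+* lungs and 22 and 19 counts in *Myh10-/-* lungs, or 0.917 and 0.578 CPM against 0.791 and 0.590 CPM. The wild-type lungs held both the highest and the lowest value. Its log2 fold change was -0.15 (SE 0.38, edgeR adjusted p = 0.893), and the interval, from -49.5% to 61.1%, is too wide for a change of moderate size to be detectable at this depth. *Twist2* had 50 and 36 counts in *Myh10+/+* lungs and 60 and 70 counts in *Myh10-/-* lungs, or 2.18 and 1.89 CPM against 2.16 and 2.18 CPM. Its groups overlap (log2 fold change 0.08, SE 0.23, edgeR adjusted p = 0.902), with an interval from -25.1% to 49.6%. The antisense gene *Gm29100*, which covers much of *Twist2*, had 17 and 12 counts in *Myh10+/+* lungs and 17 and 12 counts in *Myh10-/-* lungs. Among 19 tested genes of related basic helix-loop-helix and homeobox factors and of factors of epithelial-mesenchymal transition, edgeR called none (1 lower and 3 higher at an unadjusted p-value under 0.05), with a median log2 fold change of -0.01. The number called higher was 1 with no filter, the replicate block, the block and the offset, or without *Myh10-/-* lung 1, and without *Myh10-/-* lung 2 there were 1 higher and 1 lower. *Zeb2*, a repressor of epithelial genes, was counted at 406 and 374 CPM in *Myh10+/+* lungs and at 473 and 429 CPM in *Myh10-/-* lungs (log2 fold change 0.21, edgeR adjusted p = 0.117). *Snai1*, another such repressor, was at 63.3 and 56.7 CPM against 70.5 and 67.7 CPM (log2 fold change 0.20, edgeR adjusted p = 0.199).

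The levels of the 10 factors spanned more than 2 orders of magnitude per length of exon. Per kilobase of the annotated exons, the *Myh10+/+* lungs had 63.7 ± 0.313 CPM of *Foxf1*, 63.7 ± 1.42 of *Tbx4*, 47.2 ± 1.41 of *Meox2*, 36.9 ± 1.14 of *Hoxa5* and 27.6 ± 1.70 of *Tbx5* (SD, n = 2 lungs). These 5 stood at or above the 88.1 percentile of all tested protein-coding genes. *Tbx3* followed with 13.6 ± 0.0174 CPM per kilobase, *Hoxb5* with 6.84 ± 0.117 and *Prrx1* with 3.08 ± 0.136, at the 72.4, 52.4 and 33.3 percentiles. *Twist2* (0.642 ± 0.0651 CPM per kilobase) and *Twist1* (0.459 ± 0.147) were the lowest, at the 15.7 and 13.1 percentiles. Of neighbours in this order, *Foxf1* and *Tbx4* overlapped in their values over the lungs, and all other neighbours were apart in every lung. In *Myh10-/-* lungs *Tbx4* (64.7 ± 2.25 CPM per kilobase) ranked above *Foxf1* (56.2 ± 2.31), and the other 8 kept their ranks. With the coding length in place of the exon length 7 of the 10 kept their rank, and *Prrx1*, whose annotated exons span 11066 bp for a coding length of 735 bp, then ranked above *Tbx3* and *Hoxb5*.

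**Figure D3:**
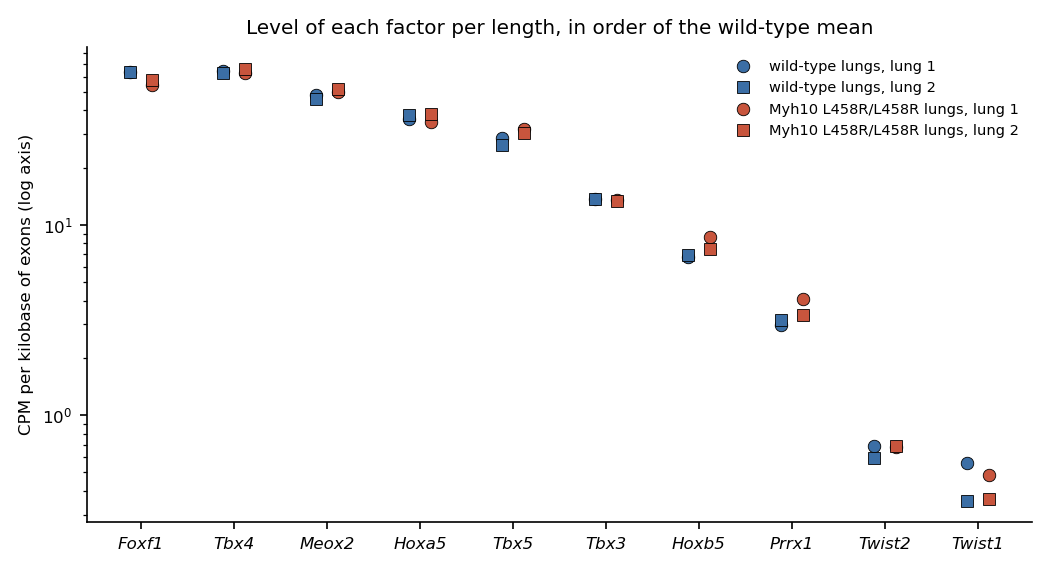
CPM per kilobase of exons (vertical log axis) of each factor in each lung, in the order of the wild-type mean, with blue for *Myh10+/+*, red for *Myh10-/-*, circles for lung 1 and squares for lung 2. The factors differ from each other far more than the genotypes do, from 63.7 for *Foxf1* to 0.459 for *Twist1* in wild-type lungs.

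RefSeq promoters on GRCm38.p6, taken as the 250 bases before the start, were at hand for 6 of the 10 factors. For *Tbx4* this start, chr11:85896765, lies inside the gene model printed above, which begins at 85886422. The *Prrx1* start, chr1:163313650 on the minus strand, also lies inside its gene model, which begins at 163313710. The E-box CANNTG, searched on both strands, was found 3 times for *Tbx4*, 2 times for *Hoxa5*, once for *Meox2* and not for *Twist1*, *Twist2* or *Prrx1*, and 66.2% of all 32817 promoters hold it. The homeodomain core TAATTA was found for *Prrx1* alone (4.85% of all promoters), and the T-box half-site AGGTGT, which can overlap an E-box, for *Twist1* alone (11.8%). The promoter of *Meox2* is printed as an example, since its values did not overlap between genotypes and its RefSeq start is also the start of its gene model. Capitals mark the E-box.
Meox2 (chr12:37108290-37108539, plus strand): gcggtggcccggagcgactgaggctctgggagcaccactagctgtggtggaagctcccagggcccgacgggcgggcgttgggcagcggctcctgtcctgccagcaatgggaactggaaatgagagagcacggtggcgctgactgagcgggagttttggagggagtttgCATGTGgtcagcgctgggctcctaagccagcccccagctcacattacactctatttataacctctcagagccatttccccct
The matches are letters in a window and were not set against binding data.

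Signals that act upstream and downstream of these factors gave no call by the edgeR test as reported here. The number called higher was 1 with library totals, robust = TRUE, the replicate block, the offset for GC content and length or both together, and 2 with no filter, and without *Myh10-/-* lung 2 it was 3, with 1 lower. Of 28 ligands, receptors and targets of the WNT, FGF, Hedgehog, BMP, PDGF, VEGF and retinoic acid pathways, 20 had a log2 fold change above 0. The median log2 fold change of the 28 was 0.04, beside 0.00 for all tested genes. *Gli1*, a target and effector of Hedgehog signalling, was counted at 91.9 and 88.7 CPM in *Myh10+/+* lungs and at 108 and 104 CPM in *Myh10-/-* lungs (log2 fold change 0.23, edgeR adjusted p = 0.0730). *Rspo2*, a mesenchymal enhancer of WNT signalling, was at 8.03 and 6.46 CPM against 10.03 and 9.60 CPM (log2 fold change 0.43, edgeR adjusted p = 0.123). At an unadjusted edgeR p-value under 0.05, 5 genes of this list were higher and 3 lower. Of all tested genes 7.52% were higher and 9.02% lower at that level. The 5 were *Gli1*, *Rspo2*, *Gli2* (log2 fold change 0.25), *Gli3* (0.20) and *Ptch1* (0.13). The 3 were *Pdgfa* (-0.20), *Vegfa* (-0.17) and *Kdr* (-0.10). The last 6 of these genes were named after their values had been seen. *Shh*, the ligand made by the epithelium, had a log2 fold change of 0.02, and the mesenchymal ligands *Fgf10* and *Wnt2* had 0.04 and 0.00, values also chosen after they had been seen.

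Of 22 other tested transcription factors of lung stroma, muscle and mesothelium, *Klf4* fell and *Plagl1* rose. Which cells of the lobe these changes came from was not tested. *Klf4*, a zinc finger factor of differentiating and quiescent cells, was counted at 43.5 and 39.6 CPM in *Myh10+/+* lungs and at 29.7 and 32.01 CPM in *Myh10-/-* lungs (log2 fold change -0.43, SE 0.08, edgeR adjusted p = 0.0247). *Plagl1*, an imprinted zinc finger gene, was counted at 457.6 and 454 CPM in *Myh10+/+* lungs and at 608 and 537 CPM in *Myh10-/-* lungs (log2 fold change 0.33, SE 0.07, edgeR adjusted p = 0.0362). The median log2 fold change of the 22 was 0.03, and the number called higher was 0 without *Myh10+/+* lung 1, *Myh10+/+* lung 2 or *Myh10-/-* lung 1, while the number called lower was 0 without *Myh10-/-* lung 1. In thinned counts, too, none was called higher.

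The noncoding RNAs listed as named for or next to the factors were not called by edgeR. Of the 21 listed, those described above included, 13 were in the table and 9 were tested. Of these 9, 2 were higher at an unadjusted p-value under 0.05, and the median log2 fold change was 0.03. Not every noncoding gene near a factor was listed. *Tbx3os1*, antisense to *Tbx3*, was counted at 42.4 and 44.6 CPM in *Myh10+/+* lungs and at 47.9 and 42.8 CPM in *Myh10-/-* lungs (log2 fold change 0.06, edgeR adjusted p = 0.762). In the Hoxa cluster the log2 fold change was 0.34 for *Hoxaas2* (edgeR adjusted p = 0.197), -0.04 for *Hoxaas3* and -0.15 for *Hotairm1*. It was 0.03 for *Hoxb3os* and 0.65 for *Gm53* (edgeR adjusted p = 0.269).

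Markers of the mesenchyme, in which the 10 factors act, gave no call by edgeR as reported here. Of 18 tested stromal markers 6 were lower and 1 higher at an unadjusted edgeR p-value under 0.05. Of all tested genes 9.02% were lower and 7.52% higher at that level. The median log2 fold change of the 18 was -0.05, and their sum was 12143 and 12027 CPM in *Myh10+/+* lungs and 11369 and 11553 CPM in *Myh10-/-* lungs. The number of stromal markers called lower was 3 by DESeq2, 4 by edgeR with no filter, 1 with the offset for GC content and length, 1 with the offset and the block, and 4 without *Myh10-/-* lung 2. Of 10 smooth muscle markers none had an unadjusted p-value under 0.05 (median log2 fold change -0.05), with sums of 840 and 892 CPM against 827 and 820 CPM. In the lists of T-box, Hox, cofactor, helix-loop-helix, noncoding and signal genes and of smooth muscle markers, DESeq2 also called none. Of the epithelial markers 11 of 19 fell and none rose (7 fell in thinned counts), with a median log2 fold change of -0.32 and sums of 10537 and 10245 CPM in *Myh10+/+* lungs against 7389 and 8537 CPM in *Myh10-/-* lungs. The lowest adjusted p-values among them by the edgeR test belonged to the surfactant genes *Sftpa1* (log2 fold change -0.57, adjusted p = 0.00592) and *Sftpb* (-0.48, 0.00961), the club cell gene *Scgb1a1* (-1.36, 0.00897) and the keratin *Krt8* (-0.33, 0.00984). Of the mesothelial markers 3 of 8 fell (*Krt19* with a log2 fold change of -0.35, *Msln* with -0.53 and *Krt8*), though *Krt8* and *Krt19* are also counted among the epithelial markers and 3 mesothelial markers had a fold change above 0. Of the leukocyte markers 2 of 9 fell (*Lyz2* with -0.44 and *Laptm5* with -0.32) and of the erythroid markers 2 of 9 (*Alas2* with -0.53 and *Hba-a2* with -0.41), and none rose, with 1 of each list above 0. In thinned counts 1 mesothelial, 1 leukocyte, 0 erythroid and 3 cardiac markers fell. DESeq2 called 0 leukocyte and 1 erythroid marker lower, and with the replicate block 4 erythroid markers fell. Of the cardiac markers *Myh6* (-0.73), *Myl7* (-0.65), *Ryr2* (-0.44) and *Tnnt2* (-0.57) had the lowest adjusted p-values. Without *Myh10+/+* lung 2 the numbers that fell were 0 endothelial, 1 leukocyte, 0 erythroid and 2 cardiac, and without *Myh10-/-* lung 2 they were 2 endothelial, 5 leukocyte and 6 erythroid. Without *Myh10+/+* lung 1 they were 1 leukocyte and 4 erythroid, and without *Myh10-/-* lung 1 they were 2 endothelial and 1 leukocyte. CPM values share a common total, and the part of the lower epithelial counts in the values of the 10 factors was not tested.

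**Figure D4:**
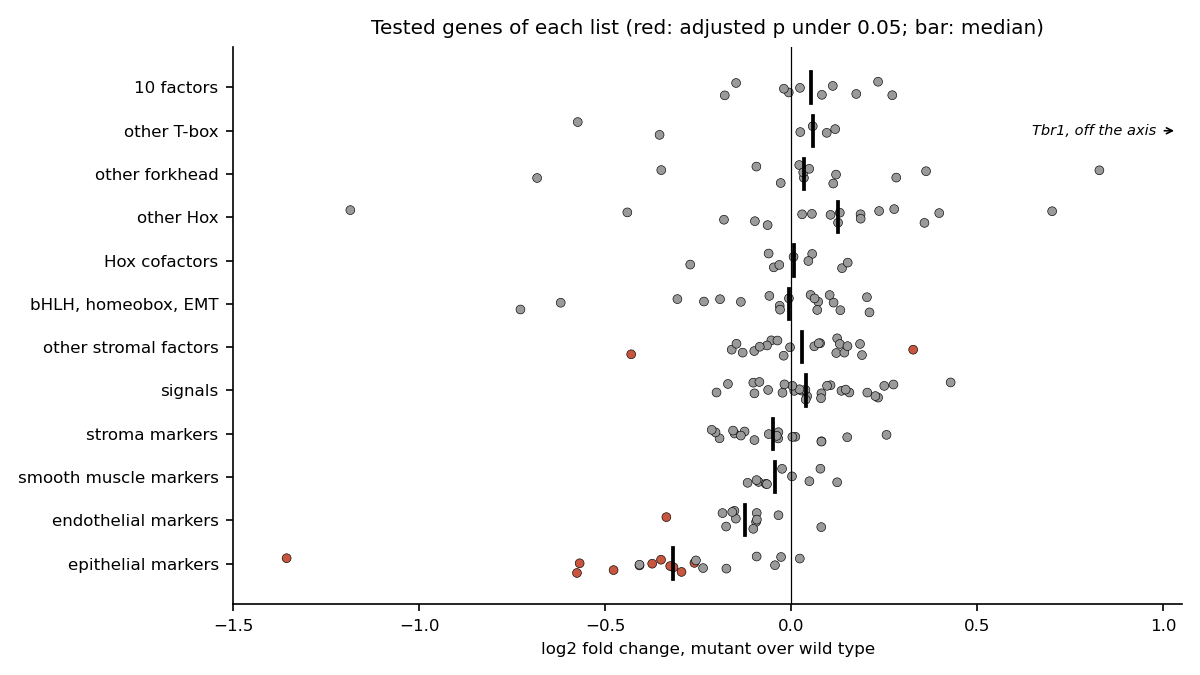
Log2 fold change (horizontal axis) of each tested gene of the 10 factors and of 11 other lists, with a bar at each list's median and red for genes with an adjusted p-value under 0.05. The medians are 0.05 for the 10 factors, 0.13 for the other Hox genes, between -0.01 and 0.06 for the other lists of transcription factors and signals, and -0.32 for the epithelial markers.

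Whether any of the 10 factors passes depends on the lungs used and on the setting. In *Tbx5*, *Hoxb5* and *Prrx1* lung 1 was the higher of the mutants, and in *Foxf1* it was the lower, so in each of these 4 it was the farther from the wild-type lungs. Without *Myh10-/-* lung 2 all 4 were called, as were 9.73% of all tested genes: *Tbx5* with a log2 fold change of 0.21 (edgeR adjusted p = 0.0340), *Foxf1* with -0.22 (0.0155), *Hoxb5* with 0.33 (0.0199) and *Prrx1* with 0.41 (0.000892). Without *Myh10-/-* lung 1, a setting with 306 calls among all tested genes, none of the 10 was called, and the log2 fold changes were 0.14, -0.14, 0.14 and 0.13 in the same order. With each lung left out in turn, *Tbx5* ranged from 0.11 (without *Myh10+/+* lung 2) to 0.24 (without *Myh10+/+* lung 1). A fit on 3 lungs takes the lone lung to vary as the pair of the other genotype does. With all 4 lungs, 1 factor was called in each of 4 settings: *Foxf1* with the replicate block, *Tbx5* with the offset for GC content and length (2.42% of all genes called) and with that offset and the block (2.79%), and *Prrx1* with no filter on low counts (4.07%). Pairing each lung with the lung of the other genotype that had the same *Xist* pattern called none of the 10, against 2.21% of all genes.

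**Figure D5:**
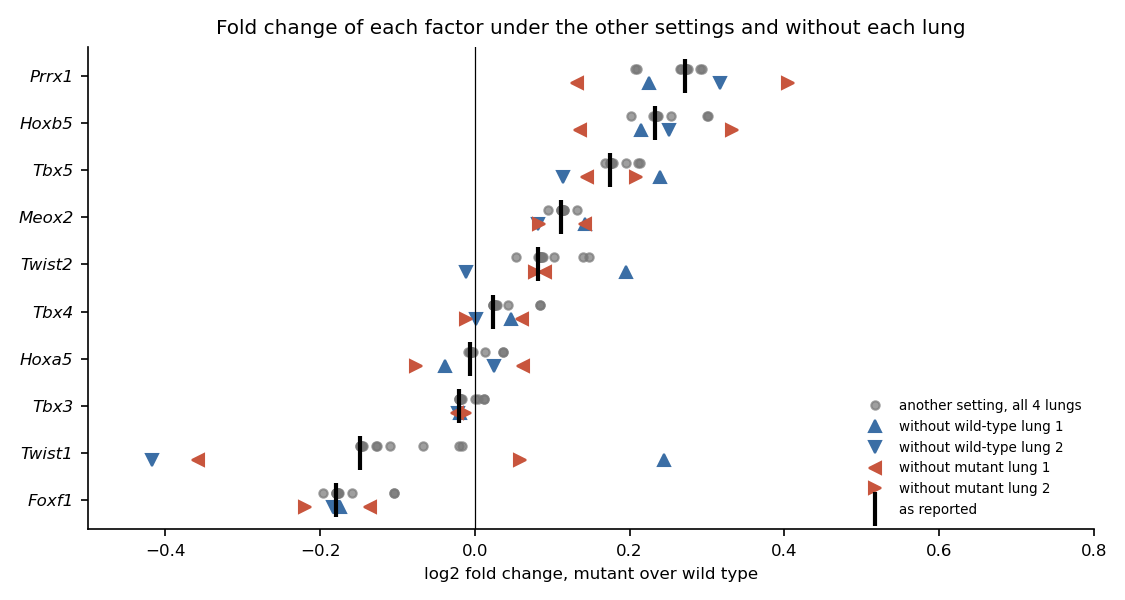
Log2 fold change (horizontal axis) of each factor as reported (black bar), under other settings with all 4 lungs (grey circles) and without each lung in turn (triangles). *Prrx1*, *Hoxb5* and *Tbx5* stay above 0 and *Foxf1* stays below 0 throughout, while *Twist1* lies between -0.42 and 0.24 depending on the lung left out.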

How the data were processed

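The authors deposited raw counts of reads per Ensembl gene. Their stranded mRNA libraries were read from one end over 75 bases, trimmed with Reaper, mapped to GRCm38 by STAR 2.4.0a and assigned to exons by featureCounts 1.5.1, without reads that fit several genes or places. Here the counts were scaled by TMM and tested with the quasi-likelihood test of edgeR 4.0.16 (R 4.3.3) on the 18763 genes averaging 5 counts or more, with Benjamini-Hochberg adjustment over all of them. The test was checked on simulated counts. Standard errors and 95% intervals come from the same fit. DESeq2 1.42.0 was an alternative. Lengths, coordinates and overlaps are from GENCODE M21 and promoters from RefSeq (GRCm38.p6). The members and the lists were chosen with earlier results of these data known. Genes named are the 10 factors, the tested noncoding RNAs listed as named for or next to them, of the other lists of factors and signals those called or, with none, the 2 of lowest unadjusted p, and up to 4 called markers per list. Lung numbers come from the labels, which do not describe pairs.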

Additional observations from a re-analysis of the deposited data

How the results depend on the processing

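The calls among the 10 factors rest on few lungs and on the setting. The number called, 0 as reported, was 1 with no filter on low counts, 1 with the replicate block, 1 with the offset for GC content and length, 1 with both, and between 0 and 4 with 1 lung left out, and it was 0 in all other settings, an adjusted p-value under 0.1 included. The number of all genes called moved from 308 to 1162 with no filter, 474 with robust = TRUE, 710 with the replicate block, 524 with the block and the offset, 124 in thinned counts and between 191 and 1826 with 1 lung left out. Log2 fold changes near 0 took the other sign in some settings. *Tbx3* was at 0.00 with library totals, 0.0117 with the offset, 0.0116 with the offset and the block, and 0.0044 in thinned counts. *Hoxa5* was at 0.0129 with library totals, 0.0368 with the offset and 0.0358 with the offset and the block. With 1 lung left out, *Tbx4* ranged from -0.011 to 0.0605, *Hoxa5* from -0.0761 to 0.0628, *Twist1* from -0.42 to 0.24 and *Twist2* from -0.0108 to 0.20. The cause of these shifts was not tested. The deviations of lungs with the same number had a correlation over genes of -0.14 (-0.02 without chromosomes X and Y). The replicate block pairs lungs that share a number and have opposite *Xist* patterns. Crossed numbers, added after the data had been seen, gave 415 calls over all genes and 0 among the 10. At 11 to 22 counts per lung, *Twist1* was limited by depth.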
